A study of Rattus norvegicus with 9 samples.

Results

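Pulmonary arteries of control rats were compared with mesenteric arteries of rats whose dams drank sucrose water in pregnancy. The pulmonary group was formed by control replicates 1, 2 and 4 (PAC), whose dams drank ordinary water, and the mesenteric group by high-sucrose replicates 1, 2 and 3 (MAH), whose dams drank water with 20% sucrose. All dams ate a standard diet, and all offspring were adults of 3 to 5 months, with arteries dissected under a microscope. The labels state neither strain nor sex, nor whether a library held the artery of 1 animal or of several. These are 6 of the 9 libraries of the series. The other 3 are mesenteric arteries of control offspring (MAC, replicates 1, 2 and 3), whose dams drank ordinary water as those of the pulmonary group did. A gene entered the comparison with at least 10 counts in at least 3 of the 6 libraries, which left 14362 of 30452 features.

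The artery and the drink of the dam both differ between the groups, so an effect of one cannot be told apart from an effect of the other within the 6 libraries. The question that can be put to them is which differences between pulmonary artery and mesenteric artery hold against a second set of mesenteric libraries, separate from the mesenteric controls. For some genes the values of the mesenteric controls are therefore given beside the others. The remaining genes and most gene lists are described against the high-sucrose libraries alone. The difference between the 2 mesenteric groups has its own test, and both comparisons with pulmonary artery use the same pulmonary libraries. The labels do not tie replicates to different animals or litters, so the p-values reflect variation among these samples and part or all of that may be technical.

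As background, mesenteric arteries are small resistance vessels of the gut that hold systemic blood pressure under dense sympathetic innervation, whereas the pulmonary artery is an elastic, low-pressure vessel that joins the heart. Arteries of the gut and the pulmonary artery descend from different mesoderm. Their cells keep a record of that origin in the homeobox genes of the Hox clusters and in other transcription factors of position. Genes of the immediate early group, cytokines and metallothioneins are induced within minutes to hours of injury, stress or handling of a tissue.

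Every library held smooth muscle and endothelial transcripts, but the pulmonary libraries also held transcripts of other tissues, above all replicates 2 and 4. Total counts were 10388231 to 15420546 per library, and levels are given as CPM, the count divided by its library's total after TMM scaling of the 9 totals. The smooth muscle genes Acta2, Myh11 and Tagln reached 768, 1033 and 996 CPM in pulmonary replicate 4 and between 2082 and 9275 CPM in the other 5 libraries of the comparison. The summed level of 24 contractile genes was 43434 and 45526 CPM in pulmonary replicates 1 and 2 and 7733 CPM in replicate 4, against 37766 to 60131 CPM in the high-sucrose mesenteric libraries. In mesenteric control replicates 1, 2 and 3 it was 77472, 28285 and 62053 CPM. Control replicate 2 was also highest of the controls for lymphatic genes (1157 against 462 and 263 CPM) and adventitial fibroblast genes (22733 against 14881 and 14430 CPM). Its part in genes for which it stands apart below was not tested. Of the markers found, pulmonary replicate 4 was the highest of all 9 libraries for 16 of 16 T cell genes, 15 of 15 B cell and plasma cell genes, 16 of 18 lung epithelium genes and 21 of 22 cell cycle genes. For 21 of 22 cardiac muscle genes the top value came from pulmonary replicate 2, with a summed level of 30794 CPM against 1234 and 2572 CPM in replicates 1 and 4 and 194 to 517 CPM in the high-sucrose libraries. Pulmonary replicate 1 also had higher summed levels than the high-sucrose libraries for mesothelium (148 against 31.8 to 77.4 CPM) and brown fat (173 against 52.3 to 98.8 CPM). Its lung epithelium level was not higher (19.7 against 21.1 to 35.4 CPM). Mitochondrial genes took 13.9%, 20.1% and 27.1% of the counts in pulmonary replicates 1, 2 and 4 and 13.8% to 20.0% in the high-sucrose libraries. For the genes and lists named below, values with a library left out are given where that changed a call or direction or moved a median by over 1.5 times, and in bulk RNA fewer cells of a type and less RNA per cell cannot be told apart.

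**Figure D1:**
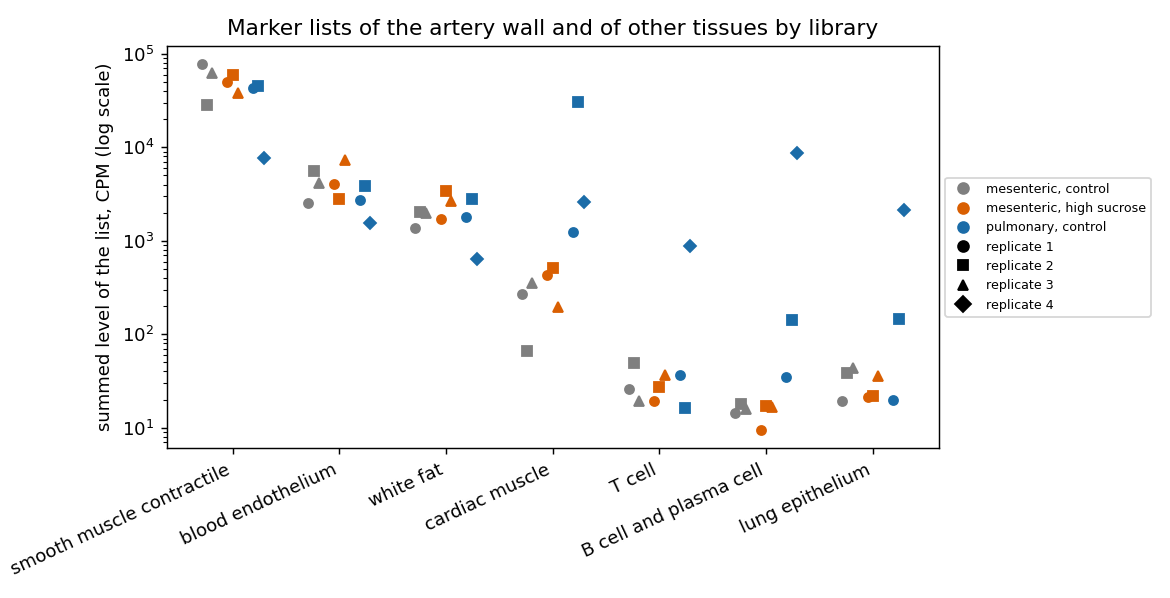
Summed level in CPM (log scale) of 7 marker lists in each of the 9 libraries, 1 point per library, with colour for the group and shape for the replicate. Pulmonary replicate 4 stands low for contractile genes and high for T cell, B cell and lung epithelium genes, and pulmonary replicate 2 stands high for cardiac muscle genes.

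Only 2 of the 14362 genes passed an adjusted p of 0.05 in edgeR's quasi-likelihood test, and both were lower in pulmonary artery (0.0139% of genes tested). They were Nkx2-3, a homeobox factor of the mesoderm of gut and spleen, and Has1, a plasma membrane enzyme that makes hyaluronan. No gene passed as higher (0%), although 667 were higher and 768 lower at an unadjusted p under 0.05. DESeq2 called 213 higher and 331 lower on the same counts, and limma-voom with quality weights 40 higher and 80 lower. The median log2 fold change over all genes tested was 0.08. In 1009 genes (7.03%) all 3 pulmonary libraries lay above all 3 high-sucrose libraries, and in 1241 genes (8.64%) they lay below. The call count rested on single libraries. Leaving out any of the 3 high-sucrose libraries or pulmonary replicate 1 or 2 left 0 calls, and leaving out pulmonary replicate 4 gave 160, of which 58 were higher and 102 lower.

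Stretches of 250 bases upstream of the annotated start are shown for 3 of the genes that the results below turn on, a positional factor that passed and 2 acute response genes with adjusted p just above the threshold. They were taken from the RefSeq promoter table for assembly GRCr8, while the count files name rn7. Nkx2-3 lies at chr1:252427106-252427355 on the plus strand, Il6 at chr4:5894576-5894825 on the minus strand and Mt2A at chr19:10838709-10838958 on the minus strand. Capitals mark every match, on either strand, to 6 motifs. They are a cyclic AMP response element (TGACGTCA), a TATA box (TATAAA), an AP-1 site (TGANTCA), a kappaB-like site (GGNNTTTCC), a metal response element core (TGCGCNC) and a GC box (GGGCGG).
Nkx2-3: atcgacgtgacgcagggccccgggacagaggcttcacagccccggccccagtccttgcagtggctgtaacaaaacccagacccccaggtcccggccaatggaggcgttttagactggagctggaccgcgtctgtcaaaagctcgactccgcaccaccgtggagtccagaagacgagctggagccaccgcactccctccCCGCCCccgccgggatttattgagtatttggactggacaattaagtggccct
Il6: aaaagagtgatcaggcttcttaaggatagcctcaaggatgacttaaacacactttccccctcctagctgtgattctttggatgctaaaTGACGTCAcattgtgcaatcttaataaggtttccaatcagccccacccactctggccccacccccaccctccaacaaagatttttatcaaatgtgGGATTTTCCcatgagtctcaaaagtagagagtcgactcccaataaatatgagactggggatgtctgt
Mt2A: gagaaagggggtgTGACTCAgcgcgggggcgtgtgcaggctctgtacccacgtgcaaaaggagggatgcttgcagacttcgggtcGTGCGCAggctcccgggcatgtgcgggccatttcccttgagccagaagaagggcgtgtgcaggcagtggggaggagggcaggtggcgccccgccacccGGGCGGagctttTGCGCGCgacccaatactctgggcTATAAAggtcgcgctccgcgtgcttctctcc
The Nkx2-3 window held 1 GC box, on the opposite strand and 52 bases upstream of the start. The Il6 window held the cyclic AMP response element at 162 bases and the kappaB-like site at 67 bases. The Mt2A window held a TATA box at 31 bases, an AP-1 site at 237 bases, metal response element cores at 55 and 165 bases and a GC box at 67 bases. Of 27457 promoter windows of this length, 1.7% held the cyclic AMP response element, 5.18% the kappaB-like site, 12.7% the metal response element core, 6.36% the AP-1 site, 13.1% the TATA box and 32.4% the GC box. The matches describe letters only, and no binding was measured.

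Transcription factors of trunk position were low in pulmonary artery, and 1 of them passed. In pulmonary replicates 1, 2 and 4 Nkx2-3 had 0, 0.145 and 0.0663 CPM, and it had 50.3, 30.6 and 57.5 CPM in the 3 high-sucrose mesenteric libraries. The pulmonary libraries held 3 counts in all against 1572, so the level in mesenteric artery was 634 times that in pulmonary artery, with an exact conditional interval at 95% confidence of 217 to 3079 for counting error (edgeR adjusted p = 0.0260). Mesenteric controls were at 48.7, 35.9 and 59.1 CPM, within the range set by the high-sucrose libraries but for the highest, and the gene also passed against them (edgeR adjusted p = 0.0223). Without pulmonary replicate 4 the adjusted p was 0.00354, and without replicate 2 it was 0.0883. Without any one of the high-sucrose libraries the gene had 10 counts in only 2 libraries and was not tested.

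Hox genes of paralog groups 5 to 8, which pattern the trunk, were all lower in pulmonary artery, though none passed the test by itself. Of 11 genes 10 were tested, and in all 10 the pulmonary libraries lay below every high-sucrose library. For 4 of the 10 the count filter was met through the high-sucrose libraries alone, so that they had to lie apart. The other 6 lay below too, as did 8.41% of all genes that met the filter otherwise. The median log2 fold change of the 10 was −4.46, with Hoxa5 nearest to 0 at −2.0, and it was −4.24 without pulmonary replicate 4, where 8 of the 10 passed. With 1 high-sucrose library left out only 6 were tested, with medians of −3.47 to −3.20 and 0 calls. The member not tested, Hoxb8, was at 0, 0.145 and 0 CPM in pulmonary artery and at 3.21, 0.859 and 0.871 CPM in the high-sucrose libraries. The summed level of the 11 genes was 12.5, 20.8 and 11.7 CPM in pulmonary replicates 1, 2 and 4, 190.3, 149 and 146 CPM in the high-sucrose libraries and 141, 209.9 and 113 CPM in the mesenteric controls. The summed level was low in every pulmonary library, and the ranges of both mesenteric groups overlapped.

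Hoxc8 was detected in 1 pulmonary library only, with 1 count at 0.0825 CPM, while high-sucrose mesenteric artery had 22.6, 16.9 and 15.9 CPM. The counts of 1 and 637 gave a mesenteric level 771 times the pulmonary one, with a counting interval of 138 to 30506 (edgeR adjusted p = 0.0516). For Hoxa6 the counts of 3 and 152 gave a level 61.3 times the pulmonary one (counting interval 20.6 to 301) (edgeR adjusted p = 0.0516). Hoxd8 had 1.81, 2.90 and 1.92 CPM in pulmonary artery and 25.7, 18.3 and 22.1 CPM in the high-sucrose libraries, a log2 fold change of −3.31 ± 0.36 (SE, 3 libraries a group, edgeR adjusted p = 0.0541). In the control mesenteric set Hoxd8 was at 20.2, 26.0 and 15.9 CPM, close to the high-sucrose set. Hoxb7 was at 0.742, 1.01 and 0.530 CPM against 20.6, 9.17 and 17.5 CPM, a log2 fold change of −4.36 ± 0.52 (SE, edgeR adjusted p = 0.0568). None of these 4 genes overlapped between the groups, which the count filter fixed in advance for Hoxc8 and Hoxa6. Lack of overlap was also a criterion for naming genes by smallest p. Without pulmonary replicate 4 all 4 passed, with edgeR adjusted p of 0.00354 for Hoxc8, 0.0161 for Hoxa6, 0.0146 for Hoxd8 and 0.0190 for Hoxb7.

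The Hox genes on either side of that range were not alike. Among groups 1 to 4, which pattern the hindbrain and neck, 5 of 9 tested genes were higher in pulmonary artery and 4 lower, with a median log2 fold change of 0.31 and 0 calls. The median ran from −0.05 without pulmonary replicate 1 to 0.77 without replicate 4. Hoxd4 and Hoxc4 lay apart from the others and below every high-sucrose library. Hoxc4 was at 0.330, 0.145 and 2.05 CPM in pulmonary artery and 14.2, 14.5 and 8.32 CPM in high-sucrose mesenteric artery. Its highest pulmonary value was that of replicate 4, and without that library it passed with a log2 fold change of −5.67 and an edgeR adjusted p of 0.0102. Of groups 9 to 13, Hoxa9 had no counts in pulmonary artery and 406 in the high-sucrose libraries, at least 164-fold lower by the floor of 3 counts over the group. It varied within mesenteric artery, at 17.7, 15.3 and 1.35 CPM in the high-sucrose libraries and 18.5, 15.4 and 0 CPM in the controls.

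Other factors of visceral mesoderm split in direction. Tcf21, a basic helix-loop-helix factor of visceral mesenchyme and fibroblasts, was at 11.2, 15.9 and 9.48 CPM in pulmonary artery and 66.7, 49.7 and 57.9 CPM in high-sucrose mesenteric artery, a log2 fold change of −2.26 ± 0.28 (SE, edgeR adjusted p = 0.0582). It passed without pulmonary replicate 4, at −2.10 with an adjusted p of 0.0202. Six2, a homeobox factor of head, kidney and outflow tract mesenchyme, ran the other way, at 9.90, 4.05 and 9.61 CPM against 0.459, 0.0955 and 0.0968 CPM. The difference was 5.06 ± 0.79 on the log2 scale (SE, edgeR adjusted p = 0.109). Six2 met the count filter through the pulmonary libraries alone, so the groups had to lie apart. Of 17 cardiopulmonary factors tested 10 were higher and 7 lower, with a median log2 fold change of 0.17 and 0 calls. The median was −0.11 without pulmonary replicate 4 and −0.44 without replicate 2. Tbx5, Gata4 and Gata5 met the count filter through the pulmonary libraries alone, so they had to lie above. Of the other 14 factors, 0 lay above every high-sucrose library. Tbx5, Gata4 and Gata5 were near 0 in all mesenteric libraries. In the order of replicates 1, 2 and 4, Tbx5 had 6.76, 48.3 and 1.86 CPM and Gata4 4.87, 41.4 and 2.39 CPM, against 1 count each in the high-sucrose libraries. Both were highest in replicate 2, the library with the most cardiac muscle RNA, and whether that RNA carries them was not tested. Gata5 had 106 counts in pulmonary artery and 0 in the high-sucrose libraries, at least 29.2-fold higher by the floor of 3 counts. A gene so low in mesenteric artery is tested only if all 3 pulmonary libraries hold 10 counts, so these factors had no test with a pulmonary library left out.

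**Figure D2:**
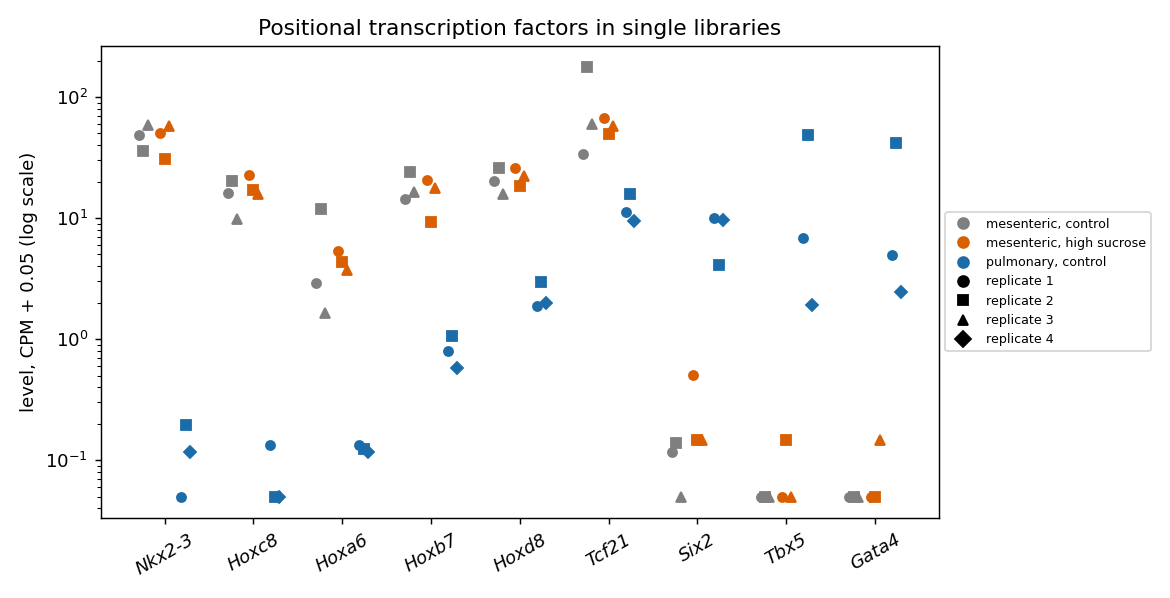
Levels of 9 positional transcription factors in CPM plus 0.05 (log scale), 1 point per library, with colour for the group and shape for the replicate. Nkx2-3, the 4 Hox genes and Tcf21 are low in all 3 pulmonary libraries and higher in both mesenteric groups, and Six2, Tbx5 and Gata4 show the opposite order.

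Has1 was lower in pulmonary artery. It belongs to the adventitial fibroblast list, where 14 of 19 genes were lower, with a median log2 fold change of −0.37. Of the 19 genes, 5 lay below every high-sucrose library and 2 above. Without pulmonary replicate 4 that list was 9 higher and 10 lower (median −0.07), and without replicate 1 its median was −0.86. Against the mesenteric controls 16 of the 19 were lower. Matricellular proteins and proteases, a list without Has1, were split, 14 higher and 15 lower of 29, with a median log2 fold change of −0.11. The list was 15 higher and 14 lower without pulmonary replicate 4 (median 0.11) and 9 higher and 20 lower without replicate 2 (−0.45). Has1 had 4.78, 2.82 and 3.38 CPM in the pulmonary libraries and 117, 103 and 180 CPM in the high-sucrose libraries, a log2 fold change of −5.19 ± 0.37 (SE, edgeR adjusted p = 0.0260). All 3 pulmonary values were below all 6 mesenteric values, but the mesenteric controls spread further, at 24.5, 175 and 132 CPM. Against those controls the log2 fold change was −4.93 ± 0.78 and the gene did not pass (edgeR adjusted p = 0.162). The difference between the 2 mesenteric groups was 0.27 ± 0.63 on the log2 scale and did not pass either (edgeR adjusted p = 1.00). Has1 passed without pulmonary replicate 4 (adjusted p = 0.00428) and not without replicate 2 (0.0883).

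Tnfaip6, a secreted protein that links hyaluronan to carrier proteins, was at 10.6, 9.92 and 4.84 CPM in pulmonary artery and 96.8, 77.2 and 103 CPM in high-sucrose mesenteric artery. The log2 fold change of −3.45 ± 0.36 (SE) did not pass (edgeR adjusted p = 0.0541), but it did without pulmonary replicate 4, at −3.17 (adjusted p = 0.00354). Control mesenteric libraries were at 18.0, 271 and 66.4 CPM, a wider spread on both sides of the high-sucrose values. Hpse2, a heparanase homologue without heparanase activity, was at 1.65, 1.88 and 2.12 CPM against 17.7, 41.5 and 22.0 CPM, yet mesenteric control replicate 2 had 0.349 CPM, below every pulmonary library. Hpse2 passed against the high-sucrose set without pulmonary replicate 4 (−3.93, edgeR adjusted p = 0.0190). Thbs1, a matricellular activator of TGF-beta, was at 11.2, 53.2 and 53.3 CPM in pulmonary artery and 482, 334 and 933 CPM in the high-sucrose libraries (log2 fold change −3.89 ± 0.74, edgeR adjusted p = 0.161). For Has1, Tnfaip6, Hpse2 and Thbs1 every pulmonary library was below every high-sucrose library, and the control group varied more between replicates. Such a lack of overlap was a criterion for naming genes by smallest p.

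Among cytokines and chemokines, 15 of the 22 tested were lower and 0 passed. Il6, the acute phase cytokine interleukin 6, was at 0.247, 0 and 0.530 CPM in pulmonary artery and 53.9, 83.2 and 85.4 CPM in high-sucrose mesenteric artery. Its log2 fold change was −8.08 ± 0.81 (SE, edgeR adjusted p = 0.0516), and it passed without pulmonary replicate 4 at −9.19 (adjusted p = 0.00354). In the mesenteric controls Il6 ran from 4.91 CPM in replicate 1 to 129 CPM in replicate 2, still above every pulmonary library. Il12a, a subunit of interleukins 12 and 35, was almost constant within each artery, at 1.73, 1.81 and 1.72 CPM against 16.1, 17.1 and 13.6 CPM (log2 fold change −3.15 ± 0.34, edgeR adjusted p = 0.0541). Cxcl14, a chemokine of fibroblasts and epithelia, was at 2.56, 4.71 and 2.72 CPM against 53.4, 13.7 and 57.4 CPM, and Ccl2, a chemokine for monocytes, at 3.96, 1.88 and 9.48 CPM against 26.4, 37.1 and 37.1 CPM. Neither passed, with edgeR adjusted p of 0.127 and 0.210. Without pulmonary replicate 4, Ccl2 (−3.53, edgeR adjusted p = 0.0158) and Il12a (−3.13, 0.0131) passed. The median log2 fold change of the 22 cytokine, chemokine and adhesion genes was −1.05, and it was −0.25 without high-sucrose replicate 3, where 12 were lower and 8 higher. Of the 22, 7 lay below all high-sucrose libraries (8.64% of all genes did) and 3 above (7.03%). For 1 of the 7 the count filter was met through the high-sucrose libraries alone, so that it had to lie below. Of the other 21 genes, 6 lay below, as did 8.41% of all genes that met the filter otherwise, and 3 above (6.44%).

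Metallothioneins, small cysteine-rich proteins that bind zinc and copper, were lower in pulmonary artery. Mt2A was at 34.6, 54.3 and 49.6 CPM against 606, 330 and 678 CPM, a log2 fold change of −3.55 ± 0.41 (SE, edgeR adjusted p = 0.0564). Mesenteric control replicate 1 came close to the pulmonary level at 58.6 CPM, while the other controls were at 535 and 401 CPM. Mt1 showed the same order at lower counts, with 2.64, 7.31 and 4.84 CPM against 20.0, 39.0 and 61.7 CPM (edgeR adjusted p = 0.146). Mt2A passed without pulmonary replicate 4 (−3.60, adjusted p = 0.0190).

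Of 22 tested immediate early genes 21 were lower in pulmonary artery, with a median log2 fold change of −1.99 where the median of all genes was 0.08, and 0 passed the test. The median was −2.01 without pulmonary replicate 4 and −1.29 without high-sucrose replicate 3. In 12 of them the pulmonary libraries lay below every high-sucrose library, against 8.64% of all genes. Nr4a2, an orphan nuclear receptor induced by cyclic AMP and calcium, was at 12.5, 19 and 13 CPM in pulmonary artery and 97.5, 64.8 and 176 CPM in high-sucrose mesenteric artery (log2 fold change −2.93 ± 0.43, edgeR adjusted p = 0.0969). Ier3, a short-lived regulator of survival, was at 33.2, 39.2 and 21.4 CPM against 134, 92.4 and 321 CPM, and Fosl2, a Fos family subunit of AP-1, at 46.6, 64.1 and 24.7 CPM against 129, 139 and 247 CPM. The summed level of the 24 genes found was 2443, 2048 and 2466 CPM in pulmonary artery, 4976, 3971 and 16617 CPM in the high-sucrose libraries and 4584, 5767 and 16921 CPM in the controls. Replicate 3 was thus the highest of each mesenteric group. The labels do not give the time from death to freezing, and its part in these genes was not tested.

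**Figure D3:**
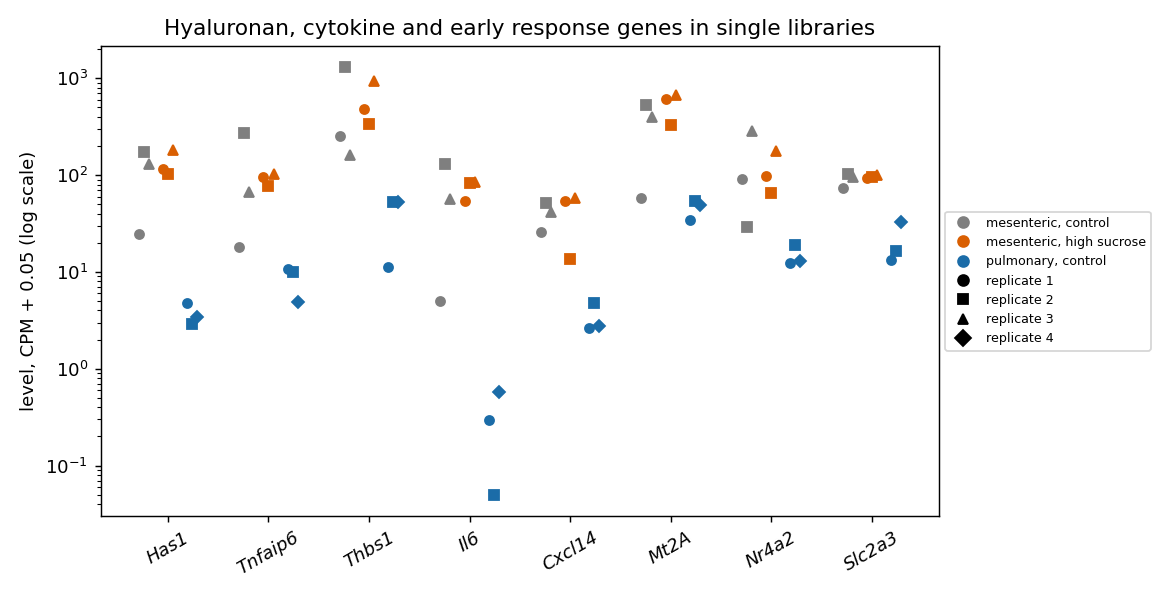
Levels of 8 hyaluronan, cytokine, metallothionein, early response and glucose transporter genes in CPM plus 0.05 (log scale), 1 point per library, with colour for the group and shape for the replicate. The 3 pulmonary libraries lie below the 3 high-sucrose libraries for each gene, which was a criterion for genes named by smallest p. The mesenteric controls spread more widely for Has1, Tnfaip6, Il6 and Mt2A.

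Circadian genes are sensitive to the hour of dissection, and 15 of the 18 tested were lower in pulmonary artery than in high-sucrose mesenteric artery, with a median log2 fold change of −0.69 and 0 calls. The median ran from −1.03 without pulmonary replicate 1 to −0.44 without replicate 4. Bhlhe40, a repressor of the clock that is also induced by stimuli, was at 25.8, 33.7 and 43.1 CPM against 115, 144 and 155 CPM in the high-sucrose libraries (log2 fold change −2.02 ± 0.28, edgeR adjusted p = 0.0804), and it passed without pulmonary replicate 4 (adjusted p = 0.0171). Against the mesenteric controls the log2 fold change of Bhlhe40 was −1.58, and the groups overlapped. Per3, a period gene, was at 17.2, 17.7 and 7.22 CPM in pulmonary artery and 58.9, 95.6 and 18.8 CPM in the high-sucrose libraries, but at 11, 20.3 and 22.1 CPM in the mesenteric controls. Its log2 fold change was −2.04 ± 0.63 against the high-sucrose set and −0.36 ± 0.45 against the control set, and neither passed. The labels give no hours of collection.

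No receptor for constrictor or dilator signals passed, and a few members had p near the threshold. Npy1r, the receptor through which neuropeptide Y from sympathetic nerves constricts arteries, was at 7.18, 13.7 and 8.81 CPM in pulmonary artery and 90.9, 151 and 135 CPM in high-sucrose mesenteric artery. The log2 fold change was −3.67 ± 0.36 (SE, edgeR adjusted p = 0.0516), and −4.11 ± 0.36 against the mesenteric controls at 169, 129 and 208 CPM (adjusted p = 0.0546). Neither mesenteric group overlapped with pulmonary artery, and Npy1r passed against the high-sucrose set without pulmonary replicate 4 (adjusted p = 0.0146). Htr2a, the serotonin receptor of smooth muscle, and Avpr1a, the vasopressin receptor, also lay below both mesenteric groups, with log2 fold changes of −2.90 ± 0.58 and −2.55 ± 0.63 and edgeR adjusted p of 0.181 and 0.264. Without pulmonary replicate 4 the adjusted p of Htr2a was 0.0345. Over the 24 constrictor receptor genes tested, 13 were lower and 11 higher, with a median log2 fold change of −0.01 that ran from −0.70 without pulmonary replicate 1 to 0.01 without high-sucrose replicate 3.

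Drd1, a dopamine receptor that raises cyclic AMP, was at 0.0825, 0.217 and 0.530 CPM in pulmonary artery and 18.4, 15 and 20.6 CPM in high-sucrose mesenteric artery (log2 fold change −5.94 ± 0.66, edgeR adjusted p = 0.0564). Control replicate 2 stood apart from the other mesenteric libraries at 2.79 CPM, though above all pulmonary values. Calcrl, the receptor subunit for the dilator peptides CGRP and adrenomedullin, was at 10.2, 11.9 and 8.35 CPM against 58.2, 30.8 and 71.0 CPM, with an edgeR adjusted p of 0.107. Ptgir, the prostacyclin receptor, was at 1.65, 2.75 and 3.25 CPM against 12.5, 9.64 and 5.23 CPM, and Adora2a, an adenosine receptor, was the reverse at 2.89, 5.79 and 12.1 CPM against 1.68, 1.05 and 2.23 CPM. Their edgeR adjusted p were 0.313 and 0.366. Mrgprg, an orphan receptor of the Mas-related family, had the smallest p of the genes higher in pulmonary artery, at 33.6, 38.9 and 13.7 CPM against 0.841, 1.34 and 1.45 CPM (log2 fold change 4.56 ± 0.53, edgeR adjusted p = 0.0564). Olr59, annotated as an olfactory receptor, was at 6.93, 13.5 and 4.64 CPM in pulmonary artery and between 93.2 and 152 CPM in all 6 mesenteric libraries (edgeR adjusted p = 0.0582 against the high-sucrose set). Without pulmonary replicate 4 the edgeR adjusted p was 0.00354 for Drd1, 0.0475 for Calcrl, 0.00354 for Mrgprg and 0.0148 for Olr59.

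Calcium channel genes differed in both directions between the arteries. Cacna1d, the L-type pore subunit of pacemaker and neuroendocrine cells, was at 61.5, 46.4 and 14.1 CPM in pulmonary artery and 0.764, 1.91 and 0.387 CPM in high-sucrose mesenteric artery, a log2 fold change of 5.31 ± 0.81 (SE, edgeR adjusted p = 0.109). Without pulmonary replicate 4 it passed, at 5.72 with an adjusted p of 0.00881. Cacna1h, a T-type pore subunit, was at 21.3, 15.8 and 10.1 CPM against 94.6, 184 and 80.7 CPM (log2 fold change −2.93 ± 0.44, edgeR adjusted p = 0.107), but control replicate 2 had 12.7 CPM and overlapped with pulmonary artery. Without pulmonary replicate 4 Cacna1h passed (−2.70, edgeR adjusted p = 0.0403). Trpc4, a cation channel subunit, was at 0.165, 0.579 and 0.398 CPM against 7.57, 18.9 and 5.71 CPM, and the same control replicate had 0 counts. The 30 calcium entry and store genes tested were split evenly, 15 higher and 15 lower, and the split ran from 19 and 10 without high-sucrose replicate 2 to 13 and 17 without pulmonary replicate 2. Among potassium channel genes, Kcne4, an inhibitory subunit, was at 9.98, 10.4 and 7.09 CPM against 77.8, 51.8 and 25.9 CPM, and Kcnab1, a beta subunit, at 14.1, 12.2 and 6.89 CPM against 17.5, 111 and 85.3 CPM. Both lay below all 6 mesenteric libraries and did not pass (edgeR adjusted p = 0.136 and 0.279).

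Contractile genes were lower in 20 of 24 cases, with a median log2 fold change of −0.66 that was −0.22 without pulmonary replicate 4, whose summed contractile level was low, −0.41 without high-sucrose replicate 2 and −1.08 without pulmonary replicate 2. In 7 of the 24 the pulmonary libraries lay below every high-sucrose library, against 8.64% of all genes, and 0 passed. Actg2, the visceral smooth muscle actin, was at 552, 855 and 295 CPM in pulmonary artery and 2308, 3148 and 1369 CPM in high-sucrose mesenteric artery (log2 fold change −2.01 ± 0.55, edgeR adjusted p = 0.313). Des, the intermediate filament desmin, was at 409, 1015 and 303 CPM against 1954, 2477 and 1308 CPM. Acta2 overlapped between the groups, at 6059, 6864 and 768 CPM against 3215, 4051 and 2082 CPM. Mustn1, a small nuclear protein of muscle and skeleton, stood out with 36.3, 42.1 and 27.4 CPM against 324, 580 and 507 CPM, a log2 fold change of −3.74 ± 0.37 (SE, edgeR adjusted p = 0.0516). Control mesenteric libraries were at 646, 211 and 729 CPM, all above pulmonary artery, and Mustn1 passed without pulmonary replicate 4 (adjusted p = 0.0102).

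Several genes of matrix and cell guidance were lower in pulmonary artery, with edgeR adjusted p just above the threshold. Slit2, a secreted guidance ligand, was at 7.67, 5.86 and 4.37 CPM against 67.7, 36.0 and 43.9 CPM, and Csgalnact1, which starts chondroitin sulfate chains, at 11.5, 8.11 and 11.1 CPM against 46.2, 43.0 and 65.1 CPM. Their log2 fold changes were −3.05 ± 0.37 and −2.33 ± 0.28, each with an edgeR adjusted p of 0.0568. Afap1l2, an adaptor of Src signalling, was at 34.7, 37.9 and 23.7 CPM against 140, 140 and 128 CPM (log2 fold change −2.09 ± 0.25, edgeR adjusted p = 0.0568). Tfpi2, an inhibitor of serine proteases in the matrix, was at 1.40, 2.61 and 0.994 CPM against 21.4, 41.0 and 39.4 CPM (log2 fold change −4.34 ± 0.50, edgeR adjusted p = 0.0564). All 4 lay below the 6 mesenteric libraries, and each passed without pulmonary replicate 4. Collagens were lower in 19 of 23 cases with a median log2 fold change of −0.62 and 0 calls, and 7 of the 23 lay below every high-sucrose library, against 8.64% of all genes. The collagen median was −0.37 without pulmonary replicate 4. Col11a1, a fibrillar collagen, was at 0.742, 8.61 and 1.33 CPM against 40.4, 48.2 and 70.2 CPM. Elastic fibre genes were 10 higher and 8 lower of 18, with a median of 0.04. They were 6 higher and 12 lower without pulmonary replicate 2 (median −0.26), 7 and 11 without replicate 1 (−0.13) and 12 and 6 without replicate 4 (0.43).

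Growth factor pathways of the wall held differences in single ligands, antagonists and carriers. Grem1, a secreted BMP antagonist, was at 2.64, 4.78 and 5.77 CPM in pulmonary artery and 162, 23.0 and 58.9 CPM in high-sucrose mesenteric artery (log2 fold change −4.21 ± 0.78, edgeR adjusted p = 0.148). The ligands Bmp5 and Bmp2 were lower too, at −3.81 ± 0.73 and −2.71 ± 0.53 (edgeR adjusted p = 0.163 and 0.168), and each lay below all 6 mesenteric libraries. Of 34 BMP and TGF-beta genes tested 22 were lower, with a median log2 fold change of −0.53, and 9 lay below every high-sucrose library, against 8.64% of all genes. The median was −0.29 without pulmonary replicate 4. In the IGF pathway the ligand and a binding protein differed in opposite directions. Igfbp5, a secreted carrier of IGFs, was at 873, 1218 and 328 CPM in pulmonary artery and 130, 73.2 and 163 CPM in high-sucrose mesenteric artery, a log2 fold change of 2.72 ± 0.59 (SE, edgeR adjusted p = 0.203). Igf2 was at 22.4, 26.2 and 24.7 CPM against 44.4, 115 and 124 CPM, while control replicate 2 had 8.03 CPM, the lowest of the 9 libraries. Sfrp2, a secreted Wnt modulator, was at 72.8, 91.3 and 50 CPM against 19.7, 9.64 and 13.6 CPM, a log2 fold change of 2.31 ± 0.36 (SE, edgeR adjusted p = 0.109). Igfbp5 and Sfrp2 both passed without pulmonary replicate 4, each with an adjusted p of 0.0192.

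Endothelial genes were lower in pulmonary artery, those of blood vessels and those of lymphatics alike. Of 25 blood endothelium genes 23 were lower, with a median log2 fold change of −1.12, and 12 lay below every high-sucrose library, against 8.64% of all genes. The median was −0.87 without pulmonary replicate 4 and −1.38 without replicate 2, and 0 genes passed in either case. Esam, an adhesion molecule of endothelial junctions, was at 42.7, 81.1 and 52.3 CPM against 200, 173 and 330 CPM (log2 fold change −2.0 ± 0.38, edgeR adjusted p = 0.162). Pecam1, the general endothelial marker, was at 401, 461 and 209 CPM against 664, 683 and 969 CPM (log2 fold change −1.12 ± 0.41, edgeR adjusted p = 0.444). Gja4, the arterial gap junction protein connexin 37, and Ackr1, a chemokine scavenger of venules, lay below the high-sucrose libraries with log2 fold changes of −1.72 ± 0.30 and −2.50 ± 0.50 (edgeR adjusted p = 0.136 and 0.181). Of 8 lymphatic genes 7 were lower, with a median of −1.58. Mmrn1, a secreted protein of lymphatic endothelium, was at 30, 26.6 and 6.56 CPM against 193, 285 and 362 CPM (log2 fold change −3.74 ± 0.63, edgeR adjusted p = 0.124), and the guidance protein Reln at 3.30, 9.48 and 6.10 CPM against 43.2, 73.5 and 25.9 CPM. Mmrn1 passed without pulmonary replicate 4 (−3.31, edgeR adjusted p = 0.0129).

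Schwann cell genes, which mark the glia of nerves in the vessel wall, were lower in 11 of 15 cases, with a median log2 fold change of −0.50 and 0 calls, and 5 of the 15 lay below every high-sucrose library, against 8.64% of all genes. The median was −0.26 without high-sucrose replicate 3 and −0.81 without pulmonary replicate 4 or 2. Cdh19, a cadherin of Schwann cells and their precursors, was at 1.98, 4.78 and 3.58 CPM in pulmonary artery and 20.9, 74.7 and 34.4 CPM in high-sucrose mesenteric artery, a log2 fold change of −3.65 ± 0.60 (SE, edgeR adjusted p = 0.118). The mesenteric controls were at 15.1, 24.6 and 17.7 CPM, so all 3 pulmonary libraries lay below all 6 mesenteric ones.

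Genes higher in pulmonary artery were fewer at small p and included enzymes, a peptidase and genes of the mesothelium. Ces1d, a carboxylesterase of fat and liver that hydrolyses lipid esters, was at 219, 197 and 44.1 CPM in pulmonary artery and 1.61, 4.49 and 3.68 CPM in high-sucrose mesenteric artery. The log2 fold change was 5.56 ± 0.77 (SE, edgeR adjusted p = 0.0804), and 4.92 ± 0.68 against the mesenteric controls (adjusted p = 0.132). Dpp4, the cell surface peptidase that inactivates incretins and marks a class of adventitial fibroblasts, was at 17.3, 22.1 and 19.3 CPM against 3.13, 3.44 and 3.48 CPM. The log2 fold change of Dpp4 was 2.54 ± 0.30 (SE, edgeR adjusted p = 0.0568), and the groups did not overlap, a criterion for naming genes by smallest p. In the adventitial fibroblast list, which holds Has1, Dpp4 and Thy1, 14 of 19 genes were lower in pulmonary artery. Both Ces1d and Dpp4 passed without pulmonary replicate 4 (adjusted p = 0.00354 and 0.0164).

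Of 12 mesothelium genes found 10 were tested, 4 of which met the count filter through the pulmonary libraries alone and so had to lie above the others. Of the other 6, 0 lay above every high-sucrose library. Their median log2 fold change was −0.33 without pulmonary replicate 4, −0.14 without replicate 1 and 0.50 without replicate 2. Msln, the surface protein mesothelin, was at 50.5, 9.27 and 141 CPM against 0.459, 0.191 and 0.581 CPM, and Upk3b, a uroplakin of mesothelium, at 16.4, 3.76 and 3.91 CPM against 1 count over the high-sucrose libraries. The counts of Upk3b, 310 against 1, gave a pulmonary level 256 times the mesenteric one with a counting interval of 45.6 to 10147. The edgeR adjusted p were 0.115 and 0.109. Ucp1, which uncouples respiration in brown adipocytes, was too low to be tested but had 216 counts in pulmonary artery, at 12.5, 4.13 and 0.464 CPM, against 2 in the high-sucrose libraries, or 89.2 times as high (counting interval 24.4 to 741). Ucma, a matrix protein of cartilage, was at 9.65, 18.0 and 0.729 CPM against 1 count. Msln was highest in replicate 4, Upk3b and Ucp1 in replicate 1 and Ucma in replicate 2, so the pulmonary libraries differed in which of these genes they held.

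Cardiac muscle, lymphocyte, epithelial and cell cycle genes had large positive values in the comparison and were highest in pulmonary replicate 2 or 4. The 13 cardiac genes tested had a median log2 fold change of 8.10, which was 4.08 without pulmonary replicate 2 and −0.18 with replicate 1 as the only pulmonary library. Actc1, the cardiac actin, was high in all 3, at 1018, 7800 and 402 CPM against 2.52, 1.81 and 0.0968 CPM (log2 fold change 10.99 ± 1.87, edgeR adjusted p = 0.127). With pulmonary replicate 1 alone the log2 fold change was 9.39 (adjusted p = 0.0490), and without replicate 4 it was 11.50 (adjusted p = 0.0376). Myh6, the atrial myosin heavy chain, was instead at 2.64 CPM in replicate 1, below the 5.20, 9.36 and 5.32 CPM of the high-sucrose libraries, and at 6138 and 477 CPM in replicates 2 and 4. Its log2 fold change was 8.37 ± 2.43 (SE, edgeR adjusted p = 0.337), and −1.32 with replicate 1 alone.

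The 14 T cell genes tested had a median log2 fold change of 3.65, and 0.02 without pulmonary replicate 4. For 6 tested B cell and plasma cell genes it was 7.42, and 1.61 without that library. Cd79a, a subunit of the B cell receptor, had 1.73, 1.74 and 493 CPM, in the order of replicates 1, 2 and 4, against 0.688, 1.05 and 1.26 CPM, and Ighm, the heavy chain of IgM, at 8.33, 90.8 and 4600 CPM against 5.43, 5.63 and 4.93 CPM. Scgb1a1, the secretoglobin of airway club cells, was at 0.165, 4.34 and 398 CPM against at most 0.774 CPM, and Sftpc, a surfactant protein of alveolar cells, at 0.0825, 28.5 and 63.9 CPM against at most 0.535 CPM. All 21 tested cell cycle genes were higher, with a median of 2.54, but 17 of 18 were lower without pulmonary replicate 4, with a median of −0.67. No member of these 4 lists passed, and 0 of the cell cycle genes lay above every high-sucrose library. How far lymphoid or lung tissue in replicate 4 and heart muscle in replicate 2 set other genes of the comparison was not tested.

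**Figure D4:**
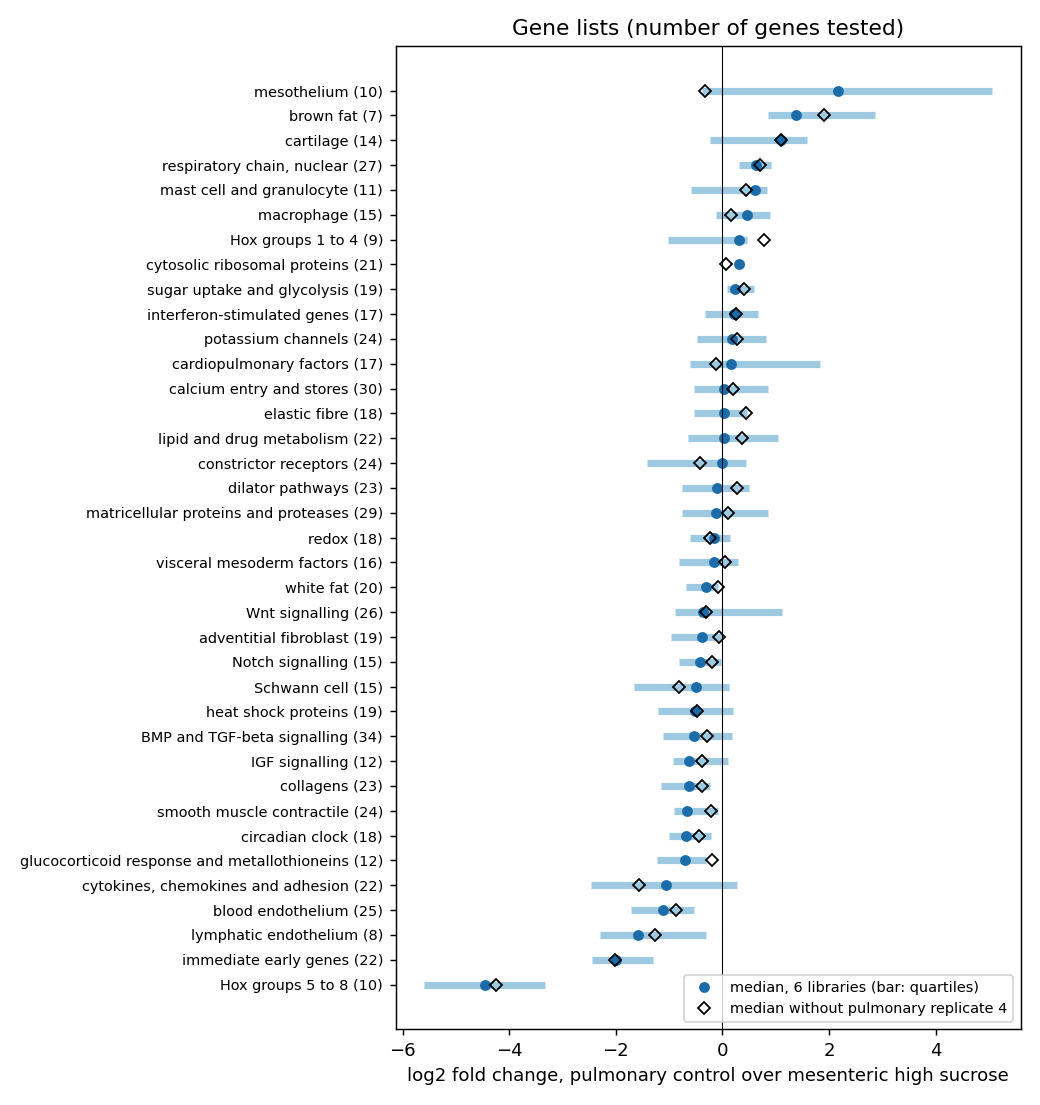
Median log2 fold change of pulmonary control over high-sucrose mesenteric artery for the gene lists drawn, with the number of genes tested in brackets. Bars give the quartiles, and open diamonds the median without pulmonary replicate 4. Lists of cardiac and skeletal muscle, lung and gut epithelium and Hox groups 9 to 13 are not drawn. Nor are the T cell, B cell and plasma cell, and cell cycle lists. Hox groups 5 to 8 lie at −4.46 with all libraries and −4.24 without pulmonary replicate 4.

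Of 27 nuclear respiratory chain genes 25 were higher, with a median log2 fold change of 0.63, and 24 of the 28 found were highest of all in pulmonary replicate 2. The median was 0.11 without that library. Cytosolic ribosomal protein genes were higher in 21 of 21 cases with a median of 0.31, and 19 of them were highest in pulmonary replicate 4. Without replicate 4 they were 11 higher and 10 lower with a median of 0.06, and without replicate 2 the median was 0.55. Lipid and drug metabolism genes were 11 higher and 11 lower of 22, with 4 above every high-sucrose library (7.03% of all genes were) and 4 below (8.64%). For 1 of the 4 above, the count filter was met through the pulmonary libraries alone, so that it had to lie above. Of the other 21 genes in the list, 3 lay above (6.44% of all genes that met the filter otherwise) and 4 below (8.41%). That list turned to 8 higher and 12 lower without pulmonary replicate 2 or 1 and to 13 higher and 8 lower without replicate 4. Among sugar genes Slc2a3, the high-affinity glucose transporter, was at 13.2, 16.4 and 32.9 CPM in pulmonary artery and 92.8, 94.5 and 99.5 CPM in high-sucrose mesenteric artery. Slc2a3 had a log2 fold change of −2.20 ± 0.38 (SE, edgeR adjusted p = 0.130), and it passed without pulmonary replicate 4 (−2.70, adjusted p = 0.00461). The mesenteric controls were at 73.3, 102 and 94.9 CPM, so the transporter was alike in both mesenteric groups.

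Set against the mesenteric controls, the same pulmonary libraries also gave 2 calls among 14349 genes, both lower in pulmonary artery (0.0139%), Nkx2-3 and Spon2. Spon2, a secreted matrix protein of the F-spondin family, was at 4.54, 4.27 and 4.84 CPM in pulmonary artery, 78.5, 103 and 64.6 CPM in the mesenteric controls and 20.2, 22.2 and 54.9 CPM in the high-sucrose libraries. Spon2 had a log2 fold change of −4.19 ± 0.28 against the controls (edgeR adjusted p = 0.0223) and −2.83 ± 0.46 against the high-sucrose set (adjusted p = 0.118). Pulmonary artery was lowest in both comparisons, and the high-sucrose libraries lay between it and the controls. Apcdd1l, a relative of a membrane-bound Wnt inhibitor, had the same order, with 1.32, 0.507 and 0.464 CPM in pulmonary artery, 11.3, 7.07 and 10.7 CPM in the high-sucrose libraries and 22.6, 27.3 and 24.3 CPM in the controls. It passed against the high-sucrose set without pulmonary replicate 4 (−3.41, edgeR adjusted p = 0.0383). The 2 comparisons share their pulmonary libraries, so their values are given side by side and are not independent.

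The test of the difference between the mesenteric groups found 0 of 14197 genes (0%), with 284 at an unadjusted p under 0.05 in edgeR, 3 calls by DESeq2 and 0 by limma-voom. No gene is therefore shown to differ between the 2 comparisons after adjustment. For Spon2 the difference of high-sucrose from control mesenteric artery was −1.34 ± 0.42 on the log2 scale (unadjusted p = 0.0141 and adjusted p = 1.00 in edgeR), and for Apcdd1l −1.35 ± 0.24 (unadjusted p = 0.000604, adjusted p = 1.00). Other named genes had unlike values in the 2 comparisons. Hspe1, the mitochondrial co-chaperonin, was at 85.0, 82.0 and 117 CPM in pulmonary artery, 98.7, 88.2 and 88.9 CPM in mesenteric controls and 273, 182 and 181 CPM in the high-sucrose libraries. Its log2 fold change was −1.16 ± 0.30 against the high-sucrose set and 0.03 ± 0.24 against the controls, and the mesenteric groups differed by 1.20 ± 0.22 (unadjusted p = 0.000815, adjusted p = 1.00 in edgeR). Mx1, an interferon-induced GTPase, was at 41.9, 13 and 52.1 CPM in pulmonary artery, 3.75, 4.97 and 5.32 CPM in the high-sucrose libraries and 7.76, 9.43 and 14.6 CPM in the controls, so pulmonary replicate 2 overlapped with the controls only. Thy1, a surface protein of fibroblasts and nerves, lay above every high-sucrose library at 12.6, 18.9 and 22.6 CPM but overlapped with the controls at 12.9, 18.9 and 18.6 CPM.

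**Figure D5:**
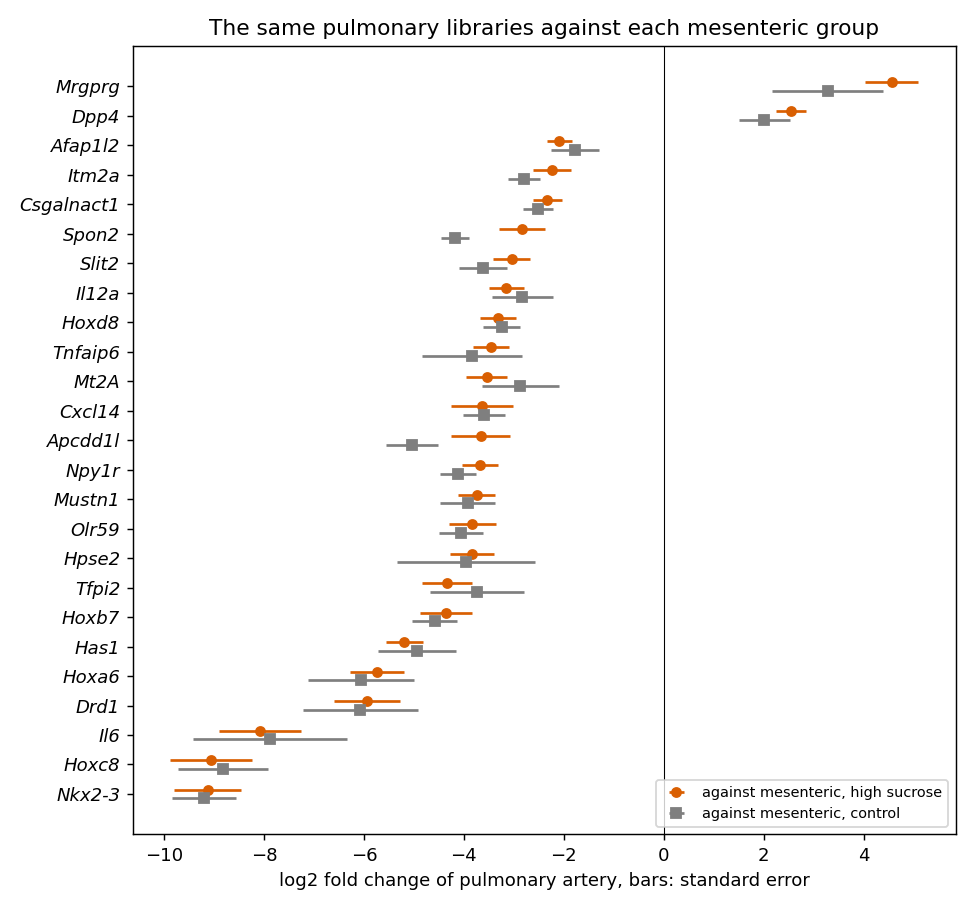
Fitted log2 fold changes of pulmonary artery against high-sucrose mesenteric artery (circles) and against control mesenteric artery (squares) for 25 genes, with bars for the standard error. The 2 sets share the 3 pulmonary libraries, values of Nkx2-3, Hoxc8 and Hoxa6 rest on 1 to 3 pulmonary counts and depend on the fit's prior count, and standard errors against the controls are wider for Has1, Tnfaip6, Il6 and Mt2A.

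With both mesenteric groups taken as 1 group of 6 libraries, 248 of 14788 genes passed, 118 of them lower (0.798%) and 130 higher (0.879%) in pulmonary artery. This fit sets aside the drink of the dam and has more libraries, so its count is not comparable with the 2 calls above. All 11 tested Hox genes of groups 5 to 8 passed as lower, with a median log2 fold change of −4.46. So did 2 of 9 genes of groups 1 to 4, Hoxc4 and Hoxd4. Nkx2-3 had the smallest adjusted p of all genes at 0.000161, and Has1 passed at −5.06 ± 0.65 (edgeR adjusted p = 0.00735). Among signalling genes Npy1r (−3.89 ± 0.35, adjusted p = 0.00208), Slit2 (−3.35 ± 0.44, 0.00796) and Calcrl (−2.57 ± 0.44, 0.0257) passed as lower. Ces1d (5.22 ± 0.51, adjusted p = 0.00256), Cacna1d (5.30 ± 0.54, 0.00259), Six2 (5.73 ± 0.69, 0.00568), Dpp4 (2.26 ± 0.36, 0.0165) and Igfbp5 (2.41 ± 0.41, 0.0244) passed as higher. Blood endothelium had 3 calls among 25 genes, immediate early genes 2 among 22 and collagens 1 among 23, all lower, and the contractile, elastic fibre, circadian, heat shock and respiratory chain lists had 0. Of 130 genes higher, 8 were cardiac muscle genes, 5 B cell and plasma cell genes and 4 mesothelium genes, lists whose summed levels differed between the pulmonary libraries as given above.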

How the data were processed

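Per the labels' protocols, poly(A) RNA was captured on oligo(dT) beads, cut to short fragments, copied with random primers and sequenced. The authors deposited raw gene counts, as whole numbers in 1 file a library, and the submitters' processing notes name the genome build rn7. No source used here names the aligner, counter, annotation or strand, so reads shared by gene copies or antisense partners cannot be separated. Of 30452 features, 7092 carried an Ensembl identifier and 2394 a name found on several lines, each kept as its own feature.

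Genes with at least 10 counts in at least 3 of the 6 libraries compared were tested with edgeR 4.0.16 (quasi-likelihood F test, TMM, robust) in R 4.3.3, fitted to those 6 libraries, with Benjamini-Hochberg adjustment over all genes tested and a threshold of 0.05. Each standard error is the size of the log2 fold change over the root of its F statistic. The test was checked on simulated counts. CPM were computed from the deposited counts with TMM factors from the full set of 9 libraries. The floor for a group without counts was 3 counts over the group, and 1 to 3 counts were given an exact conditional interval at 95% confidence. Floors and intervals cover counting error only.

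The members and the 45 gene lists (928 genes, 867 found, 1 of them by another name, 735 tested) were chosen with earlier results of these data known. Named genes are the 10 largest rises and 10 largest falls that passed, with an average log2 CPM of at least 1, a gene symbol and no overlap between groups, then, since these were fewer than 20, the 20 smallest p under the same criteria, the 10 smallest p under them against the mesenteric controls, up to 3 per list by smallest p, and the cell type markers. Lack of overlap was thus a criterion for the genes named by smallest p and is not a result for them. Hoxb8 and Hoxa5 were named outside this rule, after their values were seen. No set test was run. Alternatives were median-ratio and upper quartile factors, DESeq2 1.42.0, limma 3.58.1 voom, a newer edgeR method, 3 other filters, a joint fit of the 9 libraries, a replicate block, leaving out each library, all 6 mesenteric libraries as 1 group, and pulmonary replicate 1 alone. Chi-square per degree of freedom between libraries of a group was 45.7 to 332, so no 2 libraries agreed within sampling noise.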

Additional observations from a re-analysis of the deposited data

How the results depend on the processing

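The number of genes that passed between pulmonary control and high-sucrose mesenteric artery depended on the method. Against 2 in the analysis reported, upper quartile factors gave 23, DESeq2 544, limma-voom with quality weights 120, the newer edgeR method 31, the filterByExpr filter 23, a stricter filter 12, all 9 libraries in 1 fit 27, all 6 mesenteric libraries as 1 group 248 and pulmonary replicate 1 alone 24. Median-ratio factors and no filter kept the count at 2. Leaving out 1 library gave 0 to 160, with 160 only without pulmonary replicate 4. Against the mesenteric controls the count of 2 was 404 by DESeq2, 31 by limma-voom, 9 by the newer edgeR method, 41 with all 9 libraries in 1 fit, 0 with pulmonary replicate 1 alone and 0 to 18 with 1 library left out, 18 without pulmonary replicate 4. Between the mesenteric groups DESeq2 called 3 genes. The cause of these differences was not tested. Has1 passed in 13 of 18 alternatives, with log2 fold changes of −5.43 to −4.80, and Nkx2-3 in 13 of the 15 in which it was tested. The log2 fold change of Myh6 turned to −1.32 with pulmonary replicate 1 alone. Fits with 1 pulmonary library assume that it varies like the other group.

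The replicate number as a block gave 267 calls against the high-sucrose libraries and 37 against the controls. The labels do not say that a number pairs samples, and the groups share only numbers 1 and 2. Deviations of libraries with the same number correlated at −0.0022 and 0.131. Those of libraries with unlike numbers ran from −0.242 to 0.270, so these values cannot decide whether a number pairs samples.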
